A study of Mus musculus and Homo sapiens with 30 samples.

Results

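The metallothionein and zinc-response genes described here are 9 genes set by symbol or Ensembl ID: 5 mouse genes (Mt1, Mt2, Mtf1, Slc30a1 and Slc39a10) of 56980 mouse gene IDs, and 4 human genes (MT2A, MT1X, MT1E and SLC30A1) of 61552 human gene IDs. They were chosen from responses to the 3 media already seen in these libraries, so the fold changes between media are among the values that chose them. The differences between media are therefore given as a description of each gene, with fold change, standard error and overlap of libraries but no p-value. All 5 mouse genes and 3 of the 4 human genes passed the filter on low counts; MT1E had no count in any library.

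The study read poly(A) RNA in 30 libraries made from 3 lines of cultured cells. SkBr3 is a human breast cancer line (4 libraries per medium), E0771 a mouse mammary cancer line and NMuMG a line from normal mouse mammary gland epithelium (3 libraries per medium each), although the labels list all of them as breast cancer. The cells grew for 36 h and were then held for 16 h in 1 of 3 media: standard growth medium (control), or a mix of 50% growth medium and 50% secretome of inguinal adipocytes, which is the medium that fat cells have conditioned, of lean or of obese origin. All lines grew in DMEM supplemented with FBS at 10%, and NMuMG medium also held insulin at 10 mcg/ml and glucose at 4.5 g/L. The control medium held no secretome, so lean against obese is the only comparison matched for the share of secretome, and the 2 comparisons with control share the control libraries. The species of the adipocytes is not in the labels, and nothing in them says whether the replicates were separate cultures, so the spread between replicates may be technical.

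Metallothioneins are small cysteine-rich proteins that bind zinc, copper and cadmium in the cytosol. Their genes are switched on when free zinc rises: the zinc finger factor MTF1 senses the metal and binds metal response elements in their promoters. The same factor acts on the gene of ZnT1 (Slc30a1), which exports zinc across the plasma membrane. Slc39a10 encodes ZIP10, an importer whose gene is known to be repressed when zinc is plentiful. Metallothionein genes are also induced by glucocorticoids and by oxidative stress.

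The promoters of the exporter and the importer are shown because the core of the metal response element was found in one and not in the other. The sequences below are the 250 bases before the transcript start in the RefSeq promoter table of GRCm38.p6, from 5′ to 3′, for Slc30a1 at chr1:191906531-191906780 (plus strand) and for the first of the 2 Slc39a10 starts in the table, at chr1:46853619-46853868 (minus strand). The core of the metal response element was searched as TGCACNC or TGCGCNC on both strands, and capitals mark each match.
Slc30a1: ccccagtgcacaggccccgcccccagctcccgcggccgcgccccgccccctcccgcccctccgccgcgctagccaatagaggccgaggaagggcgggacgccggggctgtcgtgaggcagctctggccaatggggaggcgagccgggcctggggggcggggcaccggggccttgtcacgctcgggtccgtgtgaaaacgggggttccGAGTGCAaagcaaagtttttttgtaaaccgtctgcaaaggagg
Slc39a10: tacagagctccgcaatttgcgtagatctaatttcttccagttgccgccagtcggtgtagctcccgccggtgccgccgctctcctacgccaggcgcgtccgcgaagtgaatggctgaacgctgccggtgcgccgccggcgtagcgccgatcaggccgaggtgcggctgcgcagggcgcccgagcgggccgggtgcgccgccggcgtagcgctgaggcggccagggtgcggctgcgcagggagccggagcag

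A further match of Slc30a1 lay within the first 50 transcribed bases, which the table also holds. It is shown as the 30 bases at chr1:191906801-191906830, with the same use of capitals.
Slc30a1 after the start: cctccgggccGAGCGCAgtcgccgcggacg

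Over the whole window of 300 bases, Slc30a1 held 2 cores, which began 43 bases before the start and at base 31 after it, and Slc39a10 held none in either of its windows. By the same search Mt2 held 4 cores and Mt1 held 3. Those of Mt2 began 223, 128 and 50 bases before the start and at base 5 after it, and those of Mt1 began 23 bases before the start and at bases 3 and 21 after it. The Mt1 start used was base 94179089 of chromosome 8, whereas the RefSeq gene begins earlier, at base 94178883. The count and positions for Mt1 hold for the start used only. Mtf1 held none. Of 32851 promoter windows of the same length in the table, 25.7% held at least 1 core, 7.11% at least 2, 1.97% at least 3 and 0.517% at least 4. The core of the antioxidant response element, searched as TGACNNNGC on both strands, was found once in Mt2 and once in Slc30a1, against 12.4% of windows with at least 1. A match describes the letters of the window and does not show a site in use. The lack of a match in a window does not show that MTF1 has no site at the gene.

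The metallothionein genes differed between the mouse lines before any secretome was added. In control medium Mt1 (ENSMUSG00000031765) was at 209.2, 225.1 and 239.6 CPM (read counts scaled to a common library total) in the E0771 libraries and at 113.3, 127.2 and 114.3 CPM in the NMuMG libraries. Mt2 (ENSMUSG00000031762), its neighbour in the GRCm38.p6 gene table, was at 206.4, 210.3 and 231.7 CPM in E0771 and at 78.4, 83.4 and 81.5 CPM in NMuMG. All control libraries of E0771 thus lay above all those of NMuMG for both genes. In a joint fit of the 18 mouse libraries the log2 difference of NMuMG from E0771 was -0.80 (SE 0.109) for Mt1 and -1.29 (SE 0.159) for Mt2. The growth media of the lines also differed, so line and medium cannot be told apart here. Scaled by transcript length, Mt2 stood at 422.9 ± 26.6 CPM per kb (SD, n = 3) in E0771 control medium and Mt1 at 409.1 ± 27.8, at ranks 132 and 137 of 13550 genes. In NMuMG they stood at 158.7 ± 4.94 (rank 368 of 14705) and 215.4 ± 14.1 CPM per kb (rank 262).

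The lean secretome went with low metallothionein RNA in NMuMG and with no such difference in E0771. In NMuMG, Mt2 was at 14.9, 17.5 and 15.4 CPM under the lean secretome, at 32.8, 63.0 and 55.9 CPM under the obese secretome and at 78.4 to 83.4 CPM in control medium. The 3 groups did not overlap: lean was lowest, obese intermediate and control highest. The lean mean of 15.9 ± 1.4 CPM (SD, n = 3) was 5.09-fold below the control mean of 81.1 ± 2.53 (log2 -2.35, SE 0.246) and 3.18-fold below the obese mean of 50.6 ± 15.8 (log2 -1.67, SE 0.256). These values rest on 396 to 472 Mt2 counts in a lean library and 2182 to 2334 in a control library.

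Mt1 had the same order in NMuMG. It was at 48.4, 47.6 and 44.0 CPM under lean, at 71.8, 104.7 and 99.7 CPM under obese and at 113.3 to 127.2 CPM in control medium, again without overlap. Its lean mean was 2.53-fold below control (log2 -1.34, SE 0.148) and 1.97-fold below obese (log2 -0.98, SE 0.151). Obese replicate 1 was the obese library nearest to the lean ones for both genes. Under the obese secretome, Mt1 was 1.28-fold and Mt2 1.6-fold below control (log2 -0.36, SE 0.141, and -0.68, SE 0.215), and without obese replicate 1 these log2 differences were -0.21 and -0.45.

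In E0771 the libraries of the 3 media overlapped for both metallothioneins. Mt1 was at 221.2, 230.7 and 249.3 CPM under lean and at 222.8, 233.3 and 237.8 CPM under obese, beside 209.2 to 239.6 CPM in control medium. Mt2 was at 182.8, 212.9 and 204.1 CPM under lean and at 206.1, 184.8 and 224.3 CPM under obese, beside 206.4 to 231.7 CPM in control medium. The log2 difference of lean from obese was 0.02 (SE 0.0489) for Mt1 and -0.04 (SE 0.0786) for Mt2, and that of lean from control was 0.06 (SE 0.049) and -0.11 (SE 0.0786). Sums over both genes came to 435.1 ± 27.1 CPM under lean, 435.9 ± 23.5 under obese and 438.8 ± 27.9 in control medium.

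**Figure D1:**
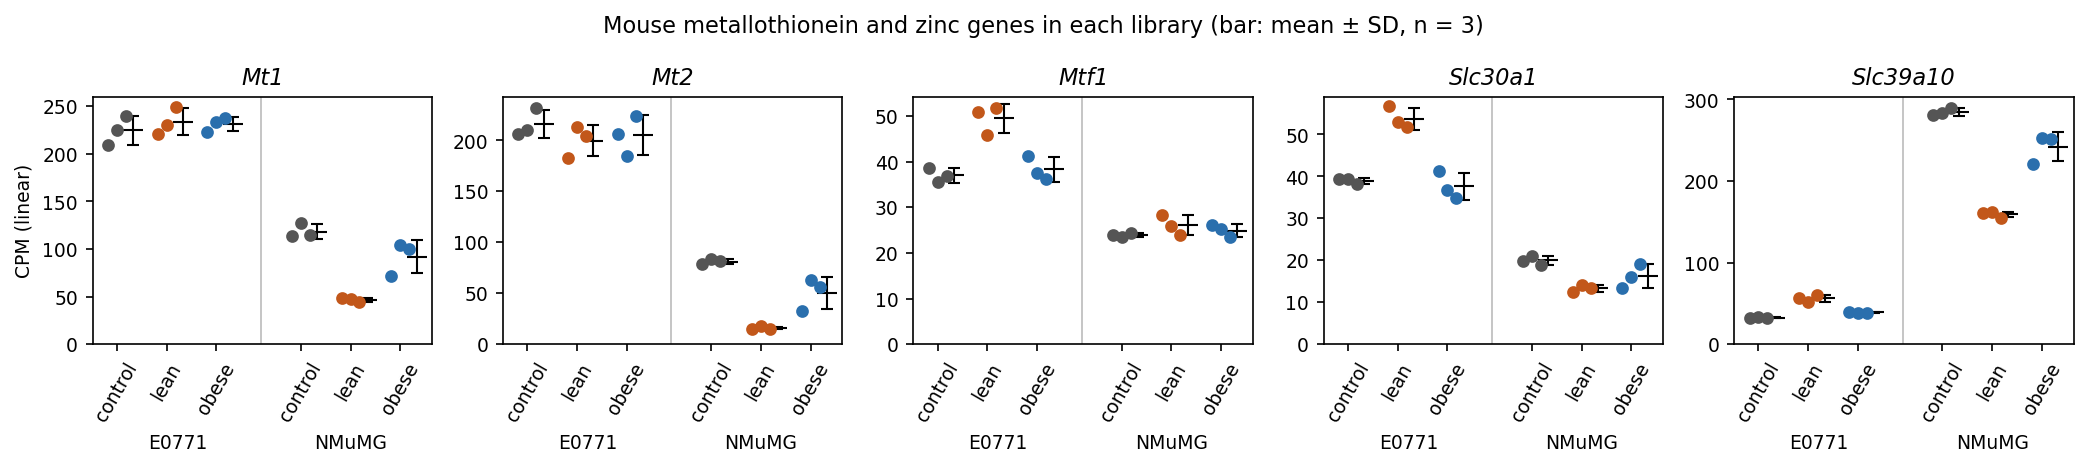
Level of each mouse gene (linear axis, CPM) in every E0771 and NMuMG library, by medium; points are libraries and the bar beside them gives the mean ± SD (n = 3). In NMuMG the lean libraries lie below all others for Mt1, Mt2 and Slc39a10, whereas in E0771 they lie above all others for Mtf1, Slc30a1 and Slc39a10.

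The balance of the 2 metallothioneins also differed with the medium in NMuMG. Mt2 counts per 100 Mt1 counts were 69.2, 65.5 and 71.4 in control medium, 45.7, 60.2 and 56.1 under obese and 30.7, 36.8 and 35.0 under lean. The ratio was lowest under lean, intermediate under obese and highest in control medium, with no overlap. In E0771 the same ratio was 96.3 ± 2.66 in control medium, 85.6 ± 5.8 under lean and 88.7 ± 8.25 under obese, and the lean libraries (81.9 to 92.3) overlapped the obese ones (79.2 to 94.3) but lay below all control ones (93.4 to 98.7). The coding sequences of Mt1 and Mt2 are closely related, and how the authors counted reads that map to several places is not given in the sources used here, so reads could have been split between or lost from both genes.

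**Figure D2:**
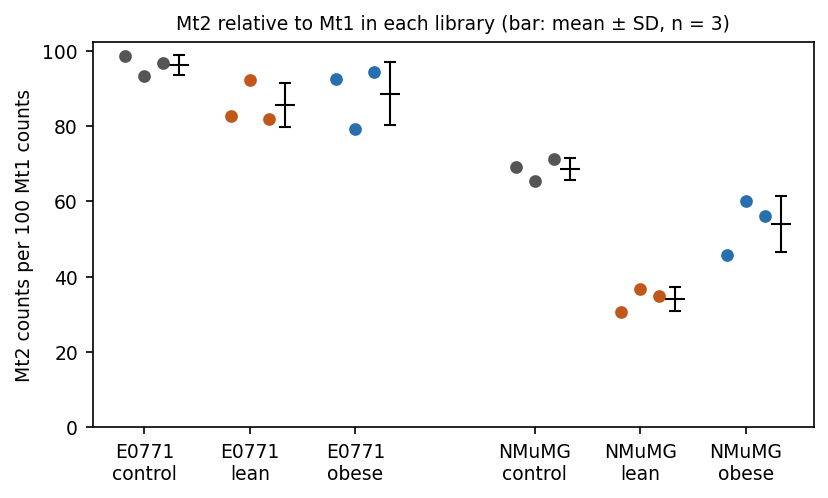
Mt2 counts per 100 Mt1 counts in each mouse library (linear axis from 0), by line and medium; the bar beside the points gives the mean ± SD (n = 3). The NMuMG means run from 68.7 in control medium through 54.0 under obese to 34.2 under lean secretome, and the E0771 means lie between 85.6 and 96.3.

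Mtf1 (ENSMUSG00000028890), the gene of the zinc sensor, did not follow the metallothioneins. In E0771 it was at 50.8, 45.9 and 51.8 CPM under lean, at 41.3, 37.5 and 36.1 CPM under obese and at 38.6, 35.5 and 36.8 CPM in control medium. The lean libraries lay above all others, 1.29-fold over obese (log2 0.37, SE 0.0621) and 1.34-fold over control (log2 0.42, SE 0.0625), while Mt1 and Mt2 overlapped between media in the same libraries. In NMuMG the 9 libraries ran from 23.4 to 28.3 CPM and all media overlapped (lean over obese log2 0.07, SE 0.0663). These are RNA levels, and MTF1 is known to be regulated as a protein by zinc binding and entry into the nucleus, which was not measured here.

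Slc30a1 (ENSMUSG00000037434), the zinc exporter, went in opposite directions in the 2 mouse lines. In E0771 it was at 56.7, 52.9 and 51.7 CPM under lean, at 41.2, 36.8 and 34.9 CPM under obese and at 39.3, 39.4 and 38.2 CPM in control medium. The lean libraries lay above all others, with means 1.43-fold over obese (log2 0.51, SE 0.0606) and 1.38-fold over control (log2 0.46, SE 0.0606). In NMuMG it was at 12.4, 14.2 and 13.4 CPM under lean, at 13.5, 16.0 and 19.2 CPM under obese and at 19.9, 21.1 and 18.9 CPM in control medium. There the lean libraries lay below all control libraries (1.5-fold, log2 -0.58, SE 0.092) but overlapped the obese ones (log2 -0.29, SE 0.0956). The NMuMG difference of lean from obese depended on single libraries. Its calls are a description only, since the gene was picked with this contrast in view. The difference passed the threshold of an adjusted p under 0.05 in the full fit. It missed the threshold without lean replicate 1 (-0.24), lean replicate 3 (-0.29) or obese replicate 3 (-0.14).

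Slc39a10 (ENSMUSG00000025986), the zinc importer, showed the greatest contrast between the lines in control medium of the 5 mouse genes. Its control level was 31.6 to 32.9 CPM in E0771 and 280.9 to 290.0 CPM in NMuMG, a 9.6-fold difference in the joint fit (log2 3.26, SE 0.052). In E0771 it was at 56.8, 51.6 and 60.5 CPM under lean and at 40.0, 38.2 and 38.6 CPM under obese. All lean libraries were above all obese ones, and all obese ones above all control ones. The lean mean was 1.45-fold over obese (log2 0.53, SE 0.0587) and 1.74-fold over control (log2 0.80, SE 0.0598), and the obese mean was 1.21-fold over control (log2 0.27, SE 0.0616).

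In NMuMG the order of the media for Slc39a10 was turned round. It was at 160.3, 161.6 and 155.2 CPM under lean, at 221.4, 253.3 and 251.6 CPM under obese and at 280.9 to 290.0 CPM in control medium, with no overlap. The lean mean was 1.52-fold below obese (log2 -0.61, SE 0.0401) and 1.79-fold below control (log2 -0.84, SE 0.0399), and the obese mean 1.18-fold below control (log2 -0.24, SE 0.0393). Obese replicate 1 was again the obese library nearest to the lean ones. Even under lean secretome the NMuMG level, 159.0 ± 3.4 CPM, was above the E0771 level of 56.3 ± 4.48 CPM. Per kb of transcript Slc39a10 stood at 51.8 ± 0.836 CPM in NMuMG control medium, below both metallothioneins and above Slc30a1 (3.80 ± 0.207) and Mtf1 (3.14 ± 0.0693).

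Read across all genes, the share of members past the threshold of an adjusted p under 0.05 (edgeR quasi-likelihood test) is a description only, since the genes were picked with these contrasts in view. For lean against obese it was 3 of 5 in E0771, where 52.7% of 13813 genes passed, and 4 of 5 in NMuMG, where 35.0% of 15014 passed. For lean against control it was 3 of 5 in E0771 (all genes 56.3%) and 4 of 5 in NMuMG (38.2%). Obese against control gave 1 of 5 in each line, Slc39a10 both times, beside 2.61% of all genes in E0771 and 5.01% in NMuMG. In E0771 that call for Slc39a10 was lost without control replicate 1 (log2 0.27), control replicate 2 (0.28), obese replicate 1 (0.25) or obese replicate 3 (0.28). In NMuMG the count became 3 without obese replicate 1, when Mt1 and Mt2 passed as well, and 2 without obese replicate 3, when Slc30a1 passed (log2 -0.43). Libraries that did not overlap between lean and obese were found for 3 of the 5 genes in each line, beside 60.1% of all genes in E0771 and 45.2% in NMuMG. Between lean and control they were found for 3 of 5 in E0771 and 4 of 5 in NMuMG, beside 61.4% and 47.8% of all genes.

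The difference between the lines in the effect of the lean secretome was largest for Mt2. The NMuMG effect minus the E0771 effect of lean over control was -2.26 on the log2 scale (SE 0.249) for Mt2, -1.67 (SE 0.0702) for Slc39a10, -1.42 (SE 0.159) for Mt1, -1.07 (SE 0.113) for Slc30a1 and -0.33 (SE 0.0924) for Mtf1. All 5 were negative, and 34.5% of 16529 genes passed the interaction test for that contrast. For lean over obese the differences were -1.65 (SE 0.255) for Mt2, -1.15 (SE 0.0694) for Slc39a10, -1.01 (SE 0.161) for Mt1, -0.82 (SE 0.116) for Slc30a1 and -0.32 (SE 0.0926) for Mtf1, beside 34.2% of all genes passing.

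In SkBr3, the human metallothioneins were also lowest under the lean secretome. MT2A (ENSG00000125148) was at 72.7, 61.1, 90.0 and 58.4 CPM under lean, at 109.7, 130.4, 135.7 and 132.2 CPM under obese and at 121.5, 114.8, 117.5 and 118.1 CPM in control medium. All lean libraries lay below all others, and lean replicate 3 was nearest to them. The lean mean of 70.5 ± 14.4 CPM (SD, n = 4) was 1.81-fold below obese (log2 -0.86, SE 0.124) and 1.68-fold below control (log2 -0.75, SE 0.125). The obese and control libraries overlapped (log2 0.11, SE 0.121).

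MT1X (ENSG00000187193), a human metallothionein of the MT1 group, was at 17.5, 14.4, 25.6 and 14.3 CPM under lean, at 36.9, 36.4, 41.0 and 36.5 CPM under obese and at 37.1, 34.4, 33.6 and 34.9 CPM in control medium. Its lean libraries were below all others too, 2.13-fold below obese (log2 -1.09, SE 0.149) and 1.98-fold below control (log2 -0.98, SE 0.151), and lean replicate 3 was again the highest of them. MT1X counts per 100 MT2A counts were 29.7 ± 0.817 in control medium, 29.9 ± 2.8 under obese and 25.1 ± 2.2 under lean, and the lean libraries (23.6 to 28.4) overlapped the obese ones (27.6 to 33.7) but lay below all control ones (28.6 to 30.6). MT1E (ENSG00000169715) had 0 counts in all 12 libraries. A floor of 3 counts corresponds to 0.103 to 0.162 CPM in these libraries, so a level below that was not detectable at this depth. As in mouse, reads of near-identical metallothionein genes could have been split or lost in counting, so the MT1E value is uncertain.

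SLC30A1 (ENSG00000170385), the human ZnT1 gene, was at 77.9, 80.7, 91.0 and 80.2 CPM under lean, at 103.1, 109.8, 109.2 and 102.1 CPM under obese and at 113.1, 107.9, 106.3 and 110.0 CPM in control medium. The lean libraries were below all others, by 1.29-fold against obese (log2 -0.37, SE 0.0455) and 1.33-fold against control (log2 -0.41, SE 0.0457). Obese and control overlapped (log2 -0.04, SE 0.0451). All 3 human genes tested passed the threshold for lean against obese and for lean against control, where 44.1% and 48.8% of 14874 genes passed, and none of the 3 for obese against control, where 1.16% passed. For all 3 genes the ranges under lean were apart from those under obese and from those in control medium, beside 34.7% and 41.6% of all genes for which the libraries were apart in these comparisons. SkBr3 and NMuMG thus had lower metallothionein and ZnT1 RNA under lean secretome than in control medium, while E0771 had higher ZnT1 RNA and overlapping metallothionein RNA. The human and mouse lines were fitted apart, and the difference between species was not tested.

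**Figure D3:**
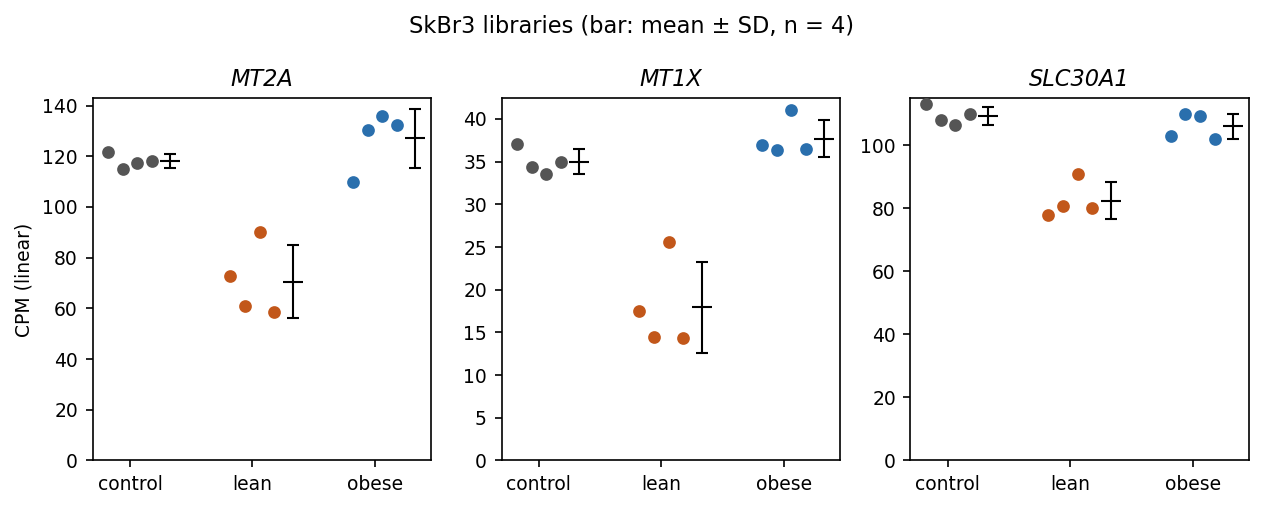
Level of MT2A, MT1X and SLC30A1 (linear axis from 0, CPM) in each SkBr3 library, by medium; points are libraries and the bar beside them gives the mean ± SD (n = 4). The 4 lean libraries lie below all others in each panel, and the third of them is the highest of its group.

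**Figure D4:**
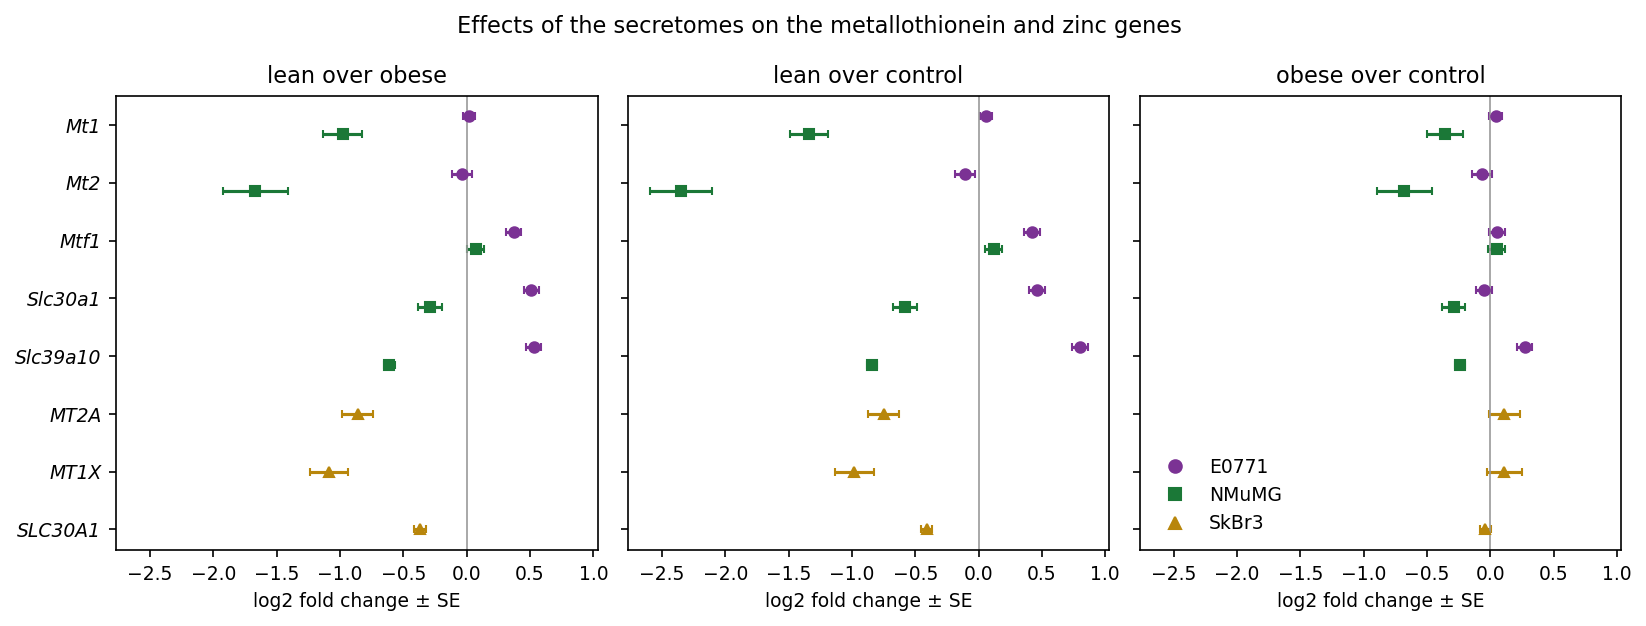
Log2 fold change ± SE of each gene tested for lean over obese, lean over control and obese over control, with symbols for the 3 lines. NMuMG and SkBr3 values for metallothioneins and ZnT1 lie left of 0 in the panels of lean secretome, and E0771 values for Mtf1, Slc30a1 and Slc39a10 lie right of 0.

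The rest of the zinc pathway was taken from a list of 24 other mouse genes: the remaining SLC30 exporters, SLC39 importers and metallothioneins. These genes were tested, with p-values adjusted over all genes of the line (edgeR quasi-likelihood test, Benjamini-Hochberg). In NMuMG, where Slc39a10 was lower under lean, 8 of 11 other SLC39 genes tested rose for lean over obese and none fell, beside 35.0% of all genes called in either direction. The median log2 fold change of the 11 was 0.19, beside 0.00 over all genes. For lean over control 7 of the 11 rose and none fell (median 0.29), beside 38.2% of all genes called. In E0771 3 of 9 rose and 2 fell for lean over obese (median 0.06), a share called near the 52.7% of all genes. For lean over control 6 of the 9 rose and 3 fell (median 0.11), beside 56.3% of all genes called. Of these calls Slc39a14 had an adjusted p of 0.0496 and Slc39a4, near the filter, of 0.0309 (edgeR quasi-likelihood test). Of the 14 genes of the whole list tested there, 12 were called in the full fit and 9 to 10 when 1 replicate was left out. Of the other SLC30 exporters, 2 of 5 rose and 1 fell for lean over obese in E0771, and 1 rose and 1 fell in NMuMG. For lean over control 2 of 5 rose and 1 fell in E0771, and 1 of 5 rose in NMuMG. In NMuMG, 11 of 17 genes of the whole list, Mt3 included, were called for lean over obese (10 rose, 1 fell). That count was 8 to 11 when 1 replicate was left out. For lean over control it was 9 of 17, and 8 to 9 when 1 replicate was left out.

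Slc39a4, which encodes the intestinal zinc importer ZIP4, had the largest change of the list in NMuMG among genes with at least moderate counts. It was at 164.4 ± 7.41 CPM under lean (SD, n = 3), 92.6 ± 20.0 under obese and 72.0 ± 2.59 in control medium. It rose by 0.83 on the log2 scale over obese (SE 0.141, adjusted p = 0.0044, edgeR quasi-likelihood test) and by 1.19 over control (SE 0.143, adjusted p = 0.000749), with all lean libraries above all others. In E0771 it was near the filter at 0.858 to 1.38 CPM. The effect of lean over control differed between the lines by 1.85 (SE 0.446, adjusted p = 0.00479, edgeR quasi-likelihood test), and that of lean over obese by 0.81 (SE 0.499, adjusted p = 0.255). In NMuMG, Slc39a4 was thus highest in the libraries in which Slc39a10 was lowest.

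Slc39a6, which encodes ZIP6, the closest relative of ZIP10, rose in both lines. In E0771 it was at 163.8 ± 12.0 CPM under lean, 94.5 ± 3.19 under obese and 87.7 ± 5.62 in control medium (lean over obese log2 0.79, SE 0.0533, adjusted p = 4.87e-11, edgeR quasi-likelihood test). In NMuMG it was at 73.7 ± 0.687, 61.5 ± 3.57 and 59.8 ± 1.15 CPM (log2 0.26, SE 0.0451, adjusted p = 1.9e-05, edgeR quasi-likelihood test). The rise in E0771 was larger, with a difference between lines of -0.55 (SE 0.0724, adjusted p = 9.57e-08, edgeR quasi-likelihood test). Slc39a6 and Slc39a10 were thus both higher under lean in E0771, while in NMuMG they went in opposite directions.

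Other transporters of the list were more modest. In E0771, Slc39a7, which encodes the endoplasmic reticulum importer ZIP7, rose by 0.28 over obese (SE 0.0529, adjusted p = 8.12e-05, edgeR quasi-likelihood test). Slc39a3 fell in E0771, from 47.1 ± 3.07 CPM under obese to 29.9 ± 0.838 under lean (log2 -0.66, SE 0.0594, adjusted p = 2.12e-09, edgeR quasi-likelihood test), while in NMuMG its log2 difference was 0.06 (SE 0.0658). The exporters Slc30a4 and Slc30a6 rose in E0771 by 0.35 and 0.31 over obese (SE 0.0458 and 0.0648), and Slc30a9 fell by 0.43 (SE 0.0542). Slc39a13, the importer ZIP13, fell in E0771 (log2 -0.28, SE 0.0542, adjusted p = 0.00013, edgeR quasi-likelihood test) and rose in NMuMG (log2 0.22, SE 0.0702, adjusted p = 0.0124), and the lines differed by 0.48 (SE 0.0882, adjusted p = 2.57e-05, edgeR quasi-likelihood test). Its NMuMG call was lost without lean replicate 1 (0.19) or obese replicate 3 (0.18). Slc39a11 rose in NMuMG by 0.42 over obese (SE 0.0668, adjusted p = 5.16e-06, edgeR quasi-likelihood test). Slc30a4 fell by 0.11 in NMuMG (SE 0.0426, adjusted p = 0.0402), a call that DESeq2 did not make and that was lost without lean replicate 1, 2 or 3 or obese replicate 2 or 3 (log2 from -0.12 to -0.09). The difference between lines passed the interaction test in 6 of 17 genes of the list for lean over obese, beside 34.2% of all genes, and in 9 of 17 for lean over control, beside 34.5%.

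**Figure D5:**
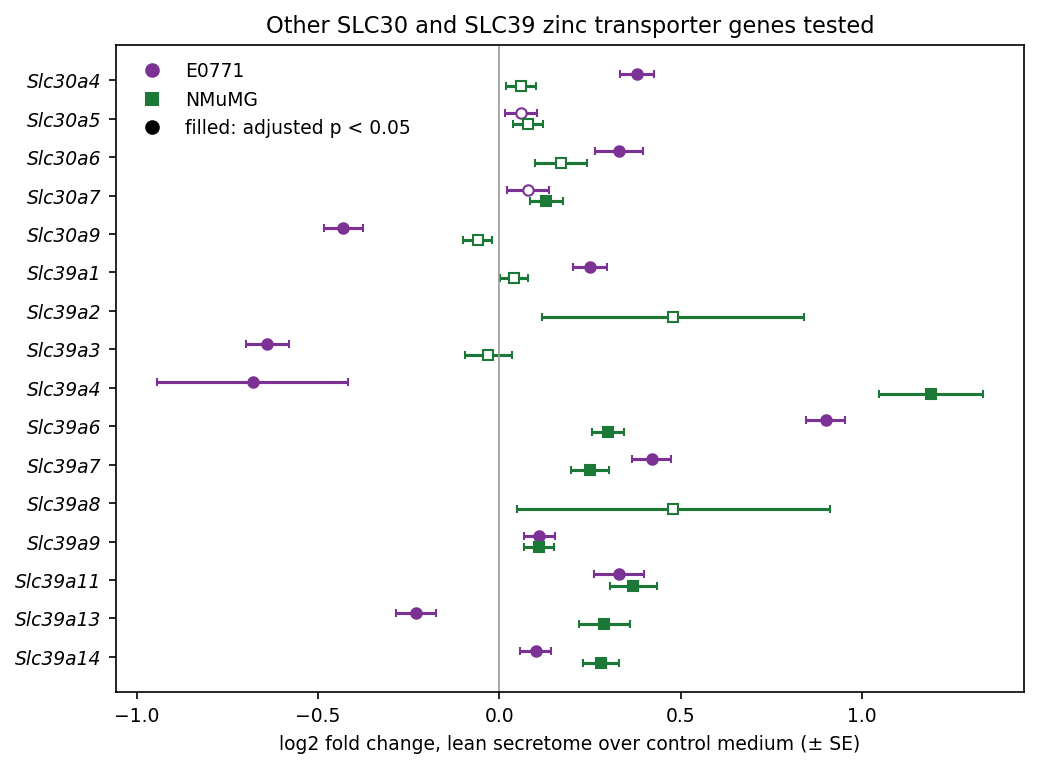
Log2 fold change ± SE of lean secretome over control medium for the other SLC30 and SLC39 genes tested, in E0771 (circles) and NMuMG (squares); filled symbols passed the threshold of an adjusted p under 0.05. Slc39a4 lies at 1.19 in NMuMG and Slc39a6 at 0.90 in E0771.

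For obese over control, 1 of 14 genes of this list tested in E0771 rose, beside 2.61% of all genes called in either direction. It was Slc39a1 (log2 0.22, SE 0.0479, adjusted p = 0.0111, edgeR quasi-likelihood test), and in NMuMG 1 of 17 rose, Slc30a4 (log2 0.17, SE 0.0427, adjusted p = 0.0105), beside 5.01% of all genes. None fell in either line. Slc39a1 was named after its value was seen. The E0771 count was 0 without control replicate 2, obese replicate 1 or obese replicate 3. The NMuMG count was 0 without control replicate 2 or obese replicate 3 and 2 without obese replicate 1. The neighbours of Mt1 and Mt2 in the metallothionein cluster were near the limit of detection. Mt4 had 0 counts in all mouse libraries. Mt3, named after its values were seen, had 30, 16 and 18 counts in the NMuMG lean libraries against 10, 3 and 1 under obese and 4, 6 and 2 in control medium. It passed the filter on low counts in a line where only the lean libraries held more than 10 counts. No test of it is therefore given, apart from its place in the counts of the whole list. In E0771 Mt3 had at most 2 counts in a library and did not pass the filter.

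Copper-handling genes were listed because metallothioneins also bind copper. For lean over obese, 5 of 15 rose and 6 fell in E0771, and 6 of 16 rose and 2 fell in NMuMG (medians 0.12 and 0.13), beside 52.7% and 35.0% of all genes called. Sod1, the copper-zinc superoxide dismutase, rose in NMuMG from 314.2 ± 28.4 to 427.4 ± 13.1 CPM (log2 0.44, SE 0.0499, adjusted p = 4.1e-06, edgeR quasi-likelihood test). Atp7a, the copper-exporting ATPase, rose in E0771 by 0.53 (SE 0.084, adjusted p = 9.28e-06, edgeR quasi-likelihood test). Atp7b, the other copper-exporting ATPase, had a larger fitted change there (log2 1.29, SE 0.393) at low levels, 1.02 CPM under lean and 0.417 under obese on average, and was named after its values were seen. Slc31a2, the copper transporter CTR2, fell in E0771 (log2 -0.63, SE 0.0931) and rose in NMuMG (log2 0.52, SE 0.144), with a difference of 1.14 (SE 0.17, adjusted p = 8.45e-07, edgeR quasi-likelihood test). In NMuMG it was at 5.28 ± 0.411 CPM under lean, 3.68 ± 0.725 under obese and 4.49 ± 0.489 in control medium. Its rise there over control was not called (log2 0.24, SE 0.137). The counts that follow are again for the whole copper list, first for lean over obese. The NMuMG count was 5 without obese replicate 3, with 4 higher and 1 lower. Obese against control called 1 of 15 genes in E0771 (higher) and 1 of 16 in NMuMG (lower), beside 2.61% and 5.01% of all genes. The E0771 count was 2 without obese replicate 2, and the NMuMG count was 2 without control replicate 2 and 3 without obese replicate 2.

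Glucocorticoid-responsive genes were listed because glucocorticoids induce metallothioneins apart from metals. For lean over obese, 2 of 7 rose and 3 fell in each line, with a median of -0.09 in both, beside 52.7% of all genes called in E0771 and 35.0% in NMuMG. Tsc22d3, which encodes GILZ, fell in NMuMG from 15.9 ± 1.3 to 9.67 ± 0.169 CPM (log2 -0.72, SE 0.0829, adjusted p = 1.41e-08, edgeR quasi-likelihood test). It also fell in E0771 (log2 -0.63, SE 0.105, adjusted p = 1.99e-05), and the lines did not differ beyond the test (difference -0.11, SE 0.131, adjusted p = 0.596, edgeR quasi-likelihood test). Dusp1, a phosphatase gene that glucocorticoids induce, rose in both lines (log2 0.99, SE 0.199, in E0771 and 0.89, SE 0.0565, in NMuMG). Per1, a clock gene, rose in E0771 (log2 0.66, SE 0.0681) and was level in NMuMG, at 23.2 ± 2.0 CPM under lean and 23.2 ± 2.13 under obese. The 3 genes lower under lean than under obese were the same in both lines: Tsc22d3, Fkbp5 and Klf9. Fkbp5 changed by -0.59 (SE 0.0472) in E0771 and -0.35 (SE 0.0456) in NMuMG, and Klf9 by -0.32 (SE 0.0697) and -0.26 (SE 0.0526). The second gene that rose in NMuMG was Sgk1 (log2 0.37, SE 0.0702). Fkbp5, Klf9 and Sgk1 were named after their values were seen. For lean over obese the list thus moved both ways within each line, with the same 3 genes lower in both. For lean over control, 2 of 7 rose and 2 fell in each line, beside 56.3% of all genes called in E0771 and 38.2% in NMuMG. Klf9 was not among them: it changed by -0.11 (SE 0.0707) in E0771 and 0.05 (SE 0.053) in NMuMG. In NMuMG Klf9 was higher under obese than in control medium (log2 0.3, SE 0.0527). Against control, the obese secretome called 4 of 7 genes in NMuMG (3 higher, 1 lower), beside 5.01% of all genes, and 0 of 7 in E0771, beside 2.61%. The NMuMG count was 2 without control replicate 1 or obese replicate 1. Any part of glucocorticoids in the metallothionein levels was not tested.

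The genes whose levels followed Mt2 most closely were found by the Pearson correlation of log2 CPM over the 9 libraries of a line, which share the 3 media. In NMuMG these were Bmp2, a growth factor (r = 0.995), Col6a1, a collagen chain (0.995), Adamts1, a secreted protease (0.994), Tacc1 (0.994) and Ncald (0.994), of 10186 genes compared. Mt1 stood at 0.995, Slc39a10 at 0.993, Slc30a1 at 0.906 and Mtf1 at -0.611. Adamts1 was at 45.9 ± 0.915 CPM in control medium, 23.5 ± 6.87 under obese and 7.66 ± 0.706 under lean. In E0771 the highest values were for Ifngr2 (0.891), Flt3l (0.856), Unc50 (0.838), Xlr4c (0.826) and Ppp3ca (0.822), of 9542 genes, and Mt1 was at 0.294. Ifngr2, the first of them, was at 22.5 ± 0.858 CPM in control medium, 22.3 ± 1.71 under lean and 22.4 ± 1.69 under obese, so like Mt2 it differed between libraries more than between media. By Spearman's rho, 1 of the 5 NMuMG genes and 3 of the 5 E0771 genes remained among the first 5. Among so many genes compared over 9 libraries, high correlations can arise by chance, and none was tested. In E0771, Mt2 overlapped between the media, so the ranking there rests on differences between single libraries.

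Total counts ran from 22929035 to 31094119 in E0771, from 23966897 to 29686456 in NMuMG and from 18479433 to 29195499 in SkBr3, and scaling factors lay between 0.987 and 1.02. Markers bore on what the lines are. NMuMG expressed the mammary epithelial markers Krt8, Krt18 and Cdh1, with Epcam low at 1.9 to 2.44 CPM on average. The summed level of these markers was 6031 to 7215 CPM. In E0771 the sum was 228.9 to 259.5 CPM and almost all Krt8, with Epcam, Krt18 and Cdh1 at 0.231 CPM or less on average. The mesenchymal gene Vim was high in both lines. It was at 3040 CPM in control medium, 2878 under obese and 2018 under lean in E0771, and at 1776, 1921 and 1772 CPM in NMuMG. Zeb1, the other mesenchymal gene listed, averaged 76.5 to 83.3 CPM in E0771 and 53.0 to 55.7 CPM in NMuMG. Of 6 adipocyte markers Lep was at 0 in every mouse library; the summed level was at most 0.262 CPM in E0771, and in NMuMG it was 2.02 to 2.08 CPM under lean against at most 0.973 in the other media, nearly all Cidec. The white blood cell marker Ptprc was at 0.322 CPM or less. Their part in the differences was not tested, and SkBr3 markers were not checked here. In RNA from whole cultures, fewer cells of a type and less RNA per cell cannot be told apart.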

How the data were processed

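The authors deposited raw read counts per Ensembl gene ID, without normalization: a mouse table (18 libraries) and a human table (12 libraries). The submitters' processing notes name cutadapt 1.16, STAR 2.7.9a, featureCounts 1.6.3 and, for every sample, GRCm39; the annotation release, strand setting and treatment of reads with several positions are not given in the sources used here, so overlapping antisense genes cannot be told apart. The kit was directional, per the labels. Mouse symbols came from GENCODE M21 (GRCm38; 52073 of 56980 IDs, 99.68% of counts), and promoters from RefSeq's table of GRCm38.p6. The 4 human genes were matched by ID; no other human names were used, so gene lists were run in mouse only.

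Each line was fitted with all 3 media in edgeR 4.0.16 (R 4.3.3): filterByExpr, TMM, robust quasi-likelihood F test, Benjamini-Hochberg adjustment over all genes, threshold 0.05. Differences between E0771 and NMuMG were an interaction in a fit of 18 libraries. CPM used TMM-scaled totals, log2 CPM a prior count of 2, and per-kb values the GENCODE M21 transcript length. The fit was tested on simulated counts. The common biological coefficient of variation, from a dispersion shared by all genes, was 0.0468 in E0771, 0.0388 in NMuMG and 0.0543 in SkBr3. Counting error alone is covered by the floor of 3 counts, as reads carried no molecular identifiers.

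The genes, lists, rules and alternatives were chosen with earlier results of these data known. Named genes were all members; called genes of the zinc list with mean log2 CPM of at least 1 (lean over obese or control, the 4 largest each way in each line); the 2 largest called of the copper and of the glucocorticoid list with the same minimum (lean over obese, each line); and the 5 genes of highest r with Mt2 among those of mean log2 CPM of at least 2. Alternatives were DESeq2 1.42.0, DESeq2 size factors, no filter, CPM on raw totals, only the 2 groups compared, a replicate block, Spearman's rho and leaving out each replicate. Same-numbered replicates did not deviate together (residual r from -0.0942 to 0.11), so numbers were not used as pairs. Pairs of replicates differed by more than sampling noise (chi-square per degree of freedom 1.97 to 15.0).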

Additional observations from a re-analysis of the deposited data

Results flagged for a closer look

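Mouse effects that differed between NMuMG and E0771 are given as the NMuMG effect minus the E0771 effect on the log2 scale, from the interaction term of edgeR's quasi-likelihood test, each with an adjusted p under 0.05. For the 5 mouse genes of the report they are a description, since these genes were chosen with the effects known. For lean over obese and lean over control they were -1.01 and -1.42 for Mt1, -1.65 and -2.26 for Mt2, -0.32 and -0.33 for Mtf1, -0.82 and -1.07 for Slc30a1, and -1.15 and -1.67 for Slc39a10. Slc39a10 also differed for obese over control (-0.51).

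Of the other zinc transporters, the lines differed for lean over obese and lean over control by -0.48 and -0.35 in Slc30a4, 0.34 and 0.35 in Slc30a9, 0.71 and 0.59 in Slc39a3, -0.55 and -0.63 in Slc39a6, and 0.48 and 0.49 in Slc39a13. Slc39a4 (1.85) and Slc39a7 (-0.20) differed for lean over control, and Slc39a11 (0.27) for lean over obese. Slc39a1 (-0.23) and Slc39a14 (0.16) also differed for lean over control, and Slc39a1 for obese over control (-0.30). Of the copper and glucocorticoid genes named by rule, the lines differed by 1.14 and 0.80 in Slc31a2, -0.37 and -0.41 in Atp7a, 0.23 and 0.21 in Sod1, and -0.68 and -0.53 in Per1. Of the rest of these lists they differed by -1.34 and -1.86 in Atp7b, which was near the limit of detection in E0771, 0.65 and 0.72 in Ccs, 0.31 and 0.21 in Steap2, and 0.22 and 0.47 in Fkbp5. Cox19 (0.31) differed for lean over obese, and Slc31a1 (-0.37) and Sgk1 (0.51) for lean over control. Line and growth medium cannot be told apart.

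MT1X in SkBr3 obese replicate 3, at 41.0 CPM, stood apart from the other 3 obese libraries (36.4 to 36.9 CPM) by Dixon's criterion. It was 1 of 9 groups of libraries examined, and chance gives about 1 in 20.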

How the results depend on the processing

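Of the fold changes of the 5 mouse and 3 human genes, no direction changed under DESeq2, DESeq2 size factors, no filter, 2-group fits or the replicate block. Without the filter, Mt2 in E0771 (lean over control, -0.11) and Slc30a1 in NMuMG (obese over control, -0.29) passed the threshold; the member count of NMuMG obese over control was then 2, and copper genes called for obese over control were 2 in E0771 and 3 in NMuMG, with 1 glucocorticoid gene in E0771. In 2-group fits the E0771 copper count was 0. No pairing was shown by the data; with the replicate block Slc30a1 in NMuMG (obese over control) passed at -0.30, making that member count 2. The other zinc genes called in E0771 for lean over control went from 12 to 11. Under DESeq2 the call of Slc30a4 in NMuMG (lean over obese, -0.11) was lost. No other call of a gene named by the rule changed under these alternatives for lean over obese or lean over control. Ifngr2 in E0771 (lean over obese) turned from just below 0 to 0.00072 (DESeq2 size factors) and 0.00094 (DESeq2). By Spearman's rho, 3 (E0771) and 1 (NMuMG) of the 5 genes most like Mt2 remained. The causes were not tested.

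Leaving out each replicate in turn gave these ranges. E0771 lean over obese: Mt1 -0.033 to 0.05, Mt2 -0.11 to 0.031, Ifngr2 -0.05 to 0.06, Unc50 -0.023 to 0.09, Xlr4c -0.0027 to 0.23. E0771 lean over control: other zinc genes 9 to 10, Ifngr2 -0.06 to 0.047, Unc50 -0.09 to 0.021. E0771 obese over control: members called 0 to 1, other zinc genes 0 to 1, copper genes 1 to 2, Mt1 -0.0061 to 0.1, Mt2 -0.14 to 0.0069, Mtf1 -0.006 to 0.09, Slc30a1 -0.12 to 0.0011, Slc39a10 0.25 to 0.3. NMuMG lean over obese: other zinc genes 8 to 11, copper genes 5 to 8, Slc30a1 -0.4 to -0.14. NMuMG lean over control: Mtf1 0.06 to 0.18. NMuMG obese over control: members 1 to 3, other zinc genes 0 to 2, copper genes 1 to 3, glucocorticoid genes 2 to 4, Mt1 -0.46 to -0.21, Mt2 -0.86 to -0.45, Slc30a1 -0.43 to -0.18.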
